A study of Mus musculus with 4 samples.

Results

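The 51 genes described here encode proteins of DNA damage signalling and repair, and were taken by gene symbol from the 56748 genes of a count table of mouse embryonic stem cells (ESCs). All 51 symbols were found in the table, and each passed the filter on low counts. The cells were of E14, an established mouse ESC line, grown without feeder cells on gelatin in medium with serum and leukaemia inhibitory factor. One library came from each of 4 samples: 2 wild-type samples (WT1 and WT2) and 2 samples in which Npac had been knocked out by CRISPR/Cas9 (KO1 and KO2). Npac, listed in the table under the symbol Glyr1, encodes a chromatin reader of H3K36me3. The KO samples were cell lines grown from colonies picked after puromycin selection, with 1 library each, and the labels do not say whether the WT samples were separate cultures, so the p-values below measure only the spread between these samples.

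Cells meet a break or a damaged base with sensor kinases, among them ATM and ATR, which pass the signal through mediators and checkpoint kinases to the cell cycle machinery. Double-strand breaks are then either resected and copied from the sister chromatid by homologous recombination, which BRCA1 and BRCA2 serve, or joined directly by the Ku-dependent route. Mismatch, base excision and nucleotide excision repair replace faulty bases in 1 strand, and the Fanconi anaemia proteins handle crosslinks between the strands. Mouse ESCs divide fast and spend much of their cycle in S phase, and they rely strongly on homologous recombination.

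Total counts were between 15850805 and 16965120 reads a library, and 18157 genes were tested. The targeted gene Glyr1 had 3961 and 3115 reads in WT1 and WT2 and 744 and 888 in KO1 and KO2, and its RNA fell to 22.7% of the WT level (edgeR adjusted p = 0.00174). Across the genome the KO libraries stood apart by chromosome. Genes of chromosome 8 had a median log2 difference from WT of 0.51 (KO1) and 0.52 (KO2) when set against the whole genome, those of chromosome 11 of 0.51 and 0.48, while every other autosome lay between -0.20 and -0.004. Each member on these chromosomes is therefore also given with its chromosome's median removed. Of 8 ESC markers 0 rose and 1, Zfp42, fell (log2 fold change -2.64) by edgeR's quasi-likelihood test. At an unadjusted p under 0.05 and by DESeq2 the counts were 0 and 3. The median log2 fold change of the 8 was -0.48. Both KO libraries lay below both WT libraries for 5 (62.5%, against 32.5% of all genes tested) and above them for 2 (25%, against 33.2%). Their summed level was 3842 to 4396 FPKM (a level scaled for gene length and sequencing depth) in WT and 3676 to 3848 in KO. The largest term of these sums was Dppa5a, with 2053 and 1979 FPKM in WT1 and WT2 and 2436 and 2408 in KO1 and KO2. Fibroblast markers summed to 11.04 to 18.2 FPKM in WT and 11.9 to 13.6 in KO, with Col3a1 at 0 reads in every library. Thy1 held most of these sums, at 9.9 and 16.3 FPKM in WT1 and WT2 and 8.5 and 10.1 in KO1 and KO2. Of the 6 markers 4 were tested. Their log2 fold changes were -0.49 for Thy1, 1.29 for Col1a1, 2.06 for Col1a2 (3 to 18 reads a library) and 0.77 for Pdgfra. Only Col1a1 was called. With chromosome medians removed Col1a1, on chromosome 11, gave 0.79 and was not called, and Col1a2 was, at 2.18. Endoderm and trophoblast markers summed to 2.04 to 3.57 FPKM in WT and 3.07 to 4.75 in KO. Of these 6 markers 3 were tested and 0 called. The part of these cells in the results below was not tested, and in such bulk samples a change in cell make-up and a change in RNA per cell cannot be told apart.

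More repair genes rose than fell in the KO libraries. Of the 51 members, 12 rose and 2 fell by edgeR's quasi-likelihood test, where a call needed an adjusted p (Benjamini-Hochberg) below 0.05 together with a change of over 1.5-fold, and 37 did not pass both thresholds. The log2 fold change was above 0 for 34 members and below 0 for 17. The genes that rose were Rad51d, Chek2, Lig3, Fanca, Mdc1, Rad51c, Exo1, Msh6, Xrcc1, Xrcc6, Parp1 and Rad50, and those that fell were Brca2 and Rbbp8. They span checkpoint signalling, recombination, crosslink, mismatch, base excision and end-joining repair. The 12 that rose were 23.5% of the members, where 11% of all genes tested rose and 11.5% of genes with a mean of at least 100 reads. The 2 that fell were 3.92% of the members, where 10.7% of all genes and 11.8% of those with at least 100 reads fell. The counts by pathway given below are of 4 to 12 genes each and are to be read beside the same shares. The median log2 fold change of the members was 0.26, with a range from -0.90 to 1.92, beside 0.00 for all genes tested. Neither KO library reached down to a WT library for 25 members (49.0%, against 33.2% of all genes), neither reached up to one for 10 (19.6%, against 32.5%), and the groups overlapped for 16. Leaving out WT1 gave 15 members that rose and 4 that fell, leaving out WT2 gave 13 and 4, and leaving out either KO1 or KO2 gave 4 and 0, with a median between 0.04 (without WT2) and 0.33 over these fits. DESeq2 also called 12 and 2.

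**Figure D1:**
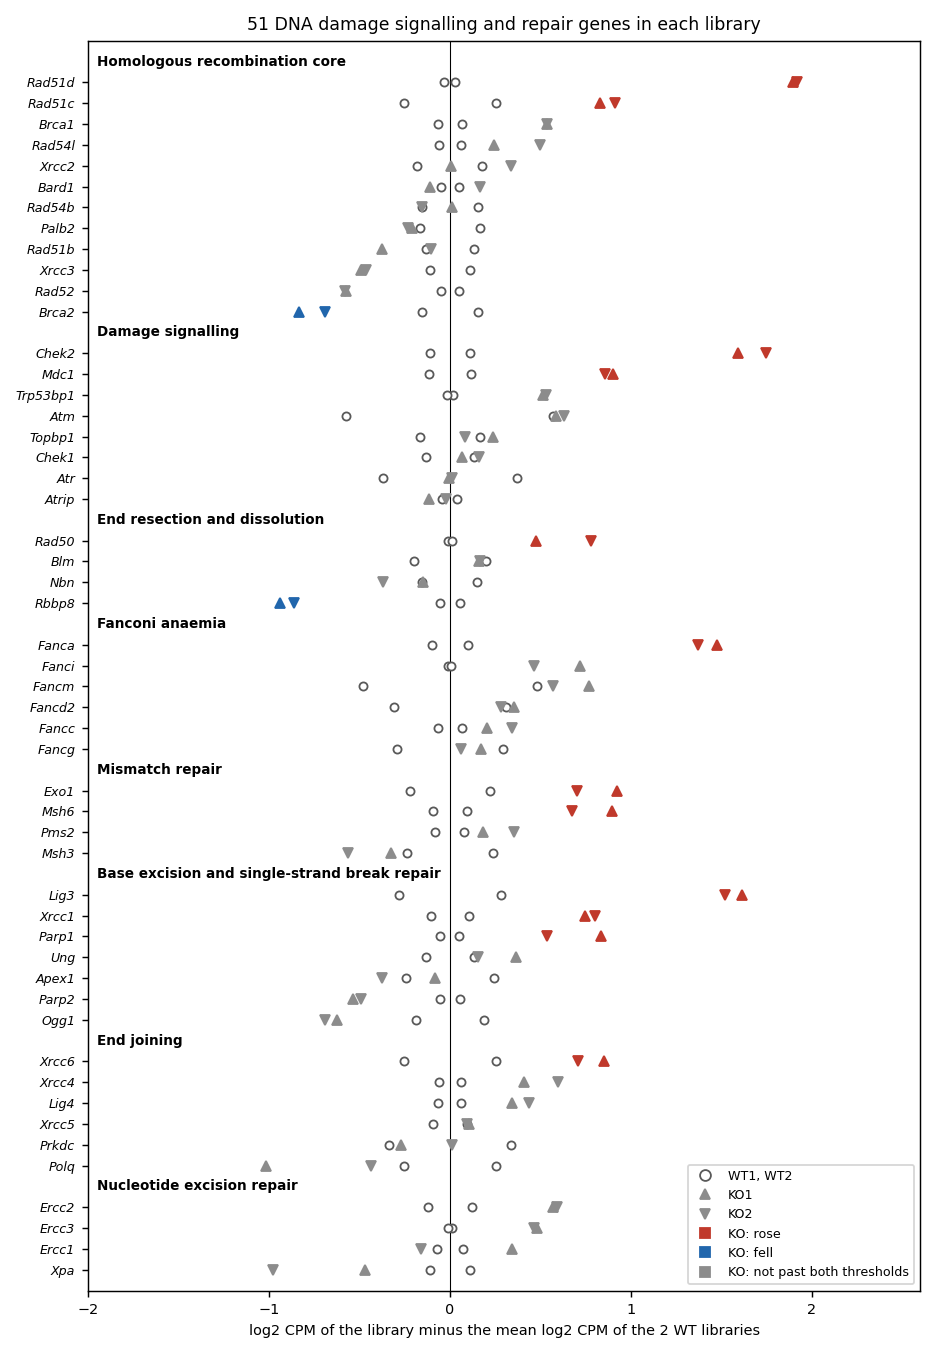
Log2 CPM (normalised counts) of each library minus the mean log2 CPM of the WT libraries, for each of the 51 members grouped by repair pathway, with circles for WT and triangles for KO. The 12 members that rose and the 2 that fell have KO points clear of the WT points, and the groups overlap for 16 of the 51.

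Summed over the 51 members, RNA per length came to 815 and 734 FPKM in WT1 and WT2 and to 1113 and 1023 FPKM in KO1 and KO2. Parp1 and Msh6, the members with the most RNA, carried much of that difference: without them the sums were 589 and 530 FPKM in WT and 719 and 699 in KO. The KO libraries were the higher ones either way. Member levels in WT reached from a mean of 1.51 FPKM for Xrcc4, a ligase partner in end joining, to 112 FPKM for Parp1, which senses strand breaks. Across the 51 members the log2 fold change had a Pearson r of 0.11 with the log2 FPKM in WT and of 0.01 with gene length. These describe genes of the same 4 libraries and carry no test.

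Promoter windows from RefSeq (GRCm38.p6, 250 bases before to 50 after each start) were matched to 41 of the 51 members, with 45 windows. A canonical E2F word (TTTGGCGC, TTTCCCGC, TTTGCCGC or TTTCGCGC on either strand), the site class that ties genes to entry into S phase, occurred in 24.4% of the member windows, beside 2.26% of all windows, 3.67% of those of genes tested and 4.59% of those of other repair genes. Among members that rose it was found in 6 of 10 windows, or by gene in 5 (Chek2, Mdc1, Rad51c, Msh6 and Xrcc6) of the 9 with a window. Rad51d, Exo1 and Rad50, which also rose, had no window. Of the members that fell only Brca2 had a window, and it held the word too, while members that did not pass both thresholds had it in 4 of 34 windows (11.8%). CCAAT was in 53.3% of member windows and 37.4% of all windows, and the CHR word TTTGAA in 6.67% and 17.9%. A match describes the letters of the window and is no evidence of binding. The windows below are those of members past both thresholds that hold an E2F word; Rad51c, which has more than 1 window, is not printed. They are written 5′ to 3′ along the gene, with matches to any of the 3 motifs in capitals. The E2F word begins at -152 in Chek2, -16 in Mdc1, 16 in Msh6, -46 in Xrcc6 and -168 in Brca2, counted from the first transcribed base as 1 and the base before it as -1.
Chek2, chr5:110839733-110840032, plus strand: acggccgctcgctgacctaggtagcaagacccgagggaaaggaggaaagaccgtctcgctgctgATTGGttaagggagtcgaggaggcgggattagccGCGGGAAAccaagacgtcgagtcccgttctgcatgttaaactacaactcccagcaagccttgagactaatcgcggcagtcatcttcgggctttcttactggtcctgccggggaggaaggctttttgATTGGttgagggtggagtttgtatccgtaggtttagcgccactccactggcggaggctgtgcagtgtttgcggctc
Mdc1, chr17:35841248-35841547, plus strand: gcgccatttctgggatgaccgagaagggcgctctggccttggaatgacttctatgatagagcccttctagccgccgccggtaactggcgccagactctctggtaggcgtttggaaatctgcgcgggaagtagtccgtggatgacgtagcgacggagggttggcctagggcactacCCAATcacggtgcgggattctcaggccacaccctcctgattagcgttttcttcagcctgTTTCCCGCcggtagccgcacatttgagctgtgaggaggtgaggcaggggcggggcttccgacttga
Msh6, chr17:87974800-87975099, plus strand: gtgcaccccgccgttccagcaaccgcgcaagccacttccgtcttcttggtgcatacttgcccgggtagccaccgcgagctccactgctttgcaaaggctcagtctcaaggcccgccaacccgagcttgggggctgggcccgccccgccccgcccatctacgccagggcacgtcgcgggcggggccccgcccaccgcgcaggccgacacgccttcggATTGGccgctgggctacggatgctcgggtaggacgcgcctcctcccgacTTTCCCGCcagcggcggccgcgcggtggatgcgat
Xrcc6, chr15:82016119-82016418, plus strand: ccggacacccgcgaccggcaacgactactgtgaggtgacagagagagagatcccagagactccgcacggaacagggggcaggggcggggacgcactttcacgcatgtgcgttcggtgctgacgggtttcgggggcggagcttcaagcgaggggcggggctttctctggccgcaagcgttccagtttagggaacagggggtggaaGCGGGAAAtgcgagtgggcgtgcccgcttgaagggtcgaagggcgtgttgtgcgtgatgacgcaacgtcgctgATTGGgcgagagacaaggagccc
Brca2, chr5:150522371-150522670, plus strand: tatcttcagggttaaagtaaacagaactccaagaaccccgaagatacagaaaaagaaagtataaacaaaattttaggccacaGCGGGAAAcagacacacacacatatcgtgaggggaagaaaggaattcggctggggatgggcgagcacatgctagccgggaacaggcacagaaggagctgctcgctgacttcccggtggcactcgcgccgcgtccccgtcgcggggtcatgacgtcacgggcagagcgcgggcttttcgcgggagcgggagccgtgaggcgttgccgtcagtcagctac
The Brca2 window has an E2F word like those of the other 4 genes, although Brca2 fell and they rose.

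In damage signalling, the checkpoint kinase and the mediator of the chromatin response rose, and the apical kinases did not pass the thresholds. Chek2, the kinase that ATM activates after double-strand breaks, had 38.7 and 33.1 CPM (counts divided by library sizes that were scaled by the trimmed mean of M-values) in WT1 and WT2, and 108 and 120 CPM in KO1 and KO2. Both KO libraries lay far above both WT libraries, and Chek2 rose 3.18-fold (log2 fold change 1.67, SE 0.19, edgeR adjusted p = 0.00217). Mdc1, the scaffold that binds phosphorylated H2AX beside a break, had 300 and 255 CPM in WT and 517 and 500 CPM in KO. It rose by less, with a log2 fold change of 0.88 (SE 0.19, edgeR adjusted p = 0.0161), again without overlap. Mdc1 was also the member of this group with the most RNA per length, at 40.1 and 34.0 FPKM in WT and 69.4 and 66.2 FPKM in KO.

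The 6 other signalling members did not pass both thresholds. Atm had 66.4 and 30.0 CPM in WT1 and WT2 and 67.1 and 69.3 CPM in KO1 and KO2. Its KO values sat just above WT1 while WT2 was below them all, and the log2 fold change of 0.50 did not pass (edgeR adjusted p = 0.316). This value rested on the WT libraries, being 1.16 and past both thresholds without WT1 and 0.04 without WT2. Atr, the kinase for stalled forks, had 142 and 85.0 CPM in WT and 110 and 111 CPM in KO, between the WT libraries. Its log2 fold change was -0.04, with a 95% interval from -0.63 to 0.54, and it was 0.34 without WT1 and -0.36 without WT2. Atrip, which carries ATR to single-stranded DNA, had the lowest log2 fold change of the group, -0.07 (95% interval -0.53 to 0.39), with 30.3 and 32.1 CPM in WT and 28.7 and 30.7 in KO. Chek1, the kinase that ATR activates, gave 0.11 with an interval from -0.32 to 0.54, so the fitted change of Chek2 was outside the interval of Chek1, although that difference between the genes was not tested. Trp53bp1, which shields breaks from resection, had 65.0 and 63.6 CPM in WT and 91.7 and 93.0 CPM in KO, without overlap, and a log2 fold change of 0.52 (edgeR adjusted p = 0.0651). Topbp1 gave 0.16. Of the 8 signalling members 2 rose and 0 fell by edgeR, as by DESeq2 and at an unadjusted p under 0.05, and the median was 0.33.

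Among the 12 genes of the homologous recombination core, Rad51c and Rad51d rose while Brca2 fell. Rad51d, at 82767260 to 82781440 on chromosome 11 in the coordinates of the authors' table, had 228 and 250 reads in WT and 852 and 960 reads in KO. As CPM these were 14.9 and 14.3 in WT1 and WT2 and 54.8 and 55.5 in KO1 and KO2, and no other member changed by as much in either direction. Rad51d rose 3.77-fold (log2 fold change 1.92, SE 0.20, edgeR adjusted p = 0.00158). With the median of chromosome 11 removed it was still higher, by 1.42 on the log2 scale (edgeR adjusted p = 0.00496). Rad51c, which like Rad51d serves homologous recombination, had 31.1 and 44.3 CPM in WT and 66.0 and 69.9 CPM in KO. The KO libraries were above both WT libraries, and it rose with a log2 fold change of 0.85 (SE 0.22, edgeR adjusted p = 0.0327). Rad51c is on chromosome 11 as well, and with the chromosome median removed its log2 fold change was 0.35 and no longer passed (edgeR adjusted p = 0.293).

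Brca2, a tumour suppressor needed for homologous recombination, had 189 and 153 CPM in WT1 and WT2 and 95.4 and 105 CPM in KO1 and KO2. Every KO value was below every WT value, and Brca2 fell to 58.7% of the WT level (log2 fold change -0.77, SE 0.19, edgeR adjusted p = 0.027). It is annotated at 150446095 to 150493794 on chromosome 5 in the table, away from the chromosomes that stood apart. Brca1, which acts before it, was the core gene with the highest level per length, 19.6 and 17.8 FPKM in WT and 27.1 and 26.8 FPKM in KO. The groups did not overlap, and KO was the higher one, with a log2 fold change of 0.53 that did not pass (edgeR adjusted p = 0.0629). Brca1 lies on chromosome 11, and with that chromosome's median removed the value was 0.04. The BRCA1 partner Bard1 gave 0.03 and Palb2, which links BRCA1 to BRCA2, -0.23. Of the other genes of the Rad51c and Rad51d family, Xrcc3 gave -0.48, Rad51b -0.24 and Xrcc2 0.17, so within that family the 2 that rose are the 2 on chromosome 11. The annealing factor Rad52 gave -0.58 and the translocases Rad54l and Rad54b 0.38 and -0.08, none past both thresholds. The median of the 12 was -0.02, with 2 that rose and 1 that fell.

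**Figure D2:**
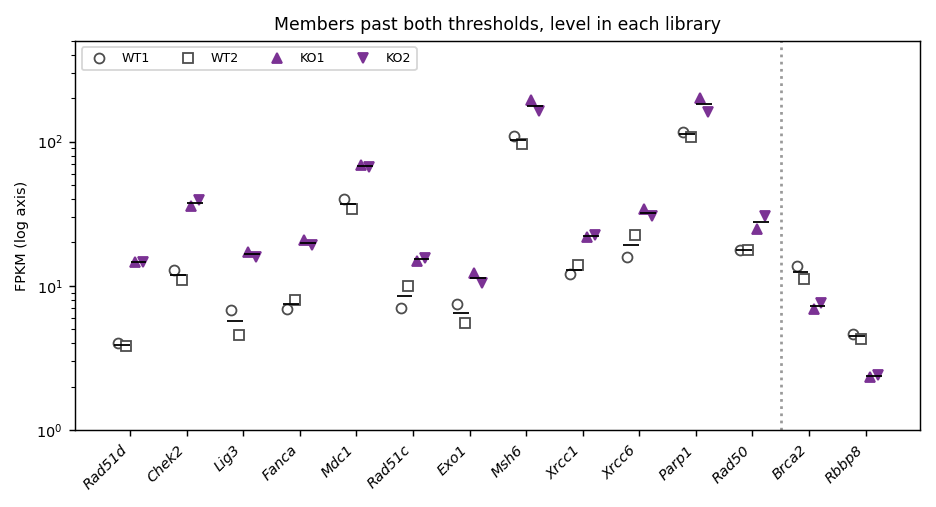
Level of each of the 14 members past both thresholds in each library, in FPKM on a log axis, with bars for the group means. Chek2, Lig3, Rad51d and Fanca show the widest gaps between the groups, and Brca2 and Rbbp8 are the pair whose KO points lie below their WT points.

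End resection gave 1 gene in each direction. Rbbp8, which encodes CtIP, the factor that starts resection, had 58.6 and 54.4 CPM in WT and 29.4 and 31.0 CPM in KO. The groups were well apart, and Rbbp8 fell to 53.5% of the WT level (log2 fold change -0.90, SE 0.19, edgeR adjusted p = 0.0152), the lowest log2 fold change of the 51 members. Rad50, of the MRE11 complex that works with CtIP at the break, had 95.7 and 96.9 CPM in WT1 and WT2 and 134 and 166 CPM in KO1 and KO2. It rose with a log2 fold change of 0.64 (SE 0.19, edgeR adjusted p = 0.046), close to the threshold. Rad50 is on chromosome 11, and without the chromosome median its log2 fold change was 0.14 (edgeR adjusted p = 0.625). Nbn, of the same complex, gave -0.26 and the helicase Blm 0.15, neither past the thresholds.

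All 6 Fanconi anaemia members had a log2 fold change above 0, with a median of 0.44, and 1 rose. Fanca, of the core complex that ubiquitinates the FANCD2 and FANCI pair, had 61.4 and 70.4 CPM in WT and 183 and 170 CPM in KO. The lower KO library had more than the higher WT library by a wide margin, and Fanca rose 2.68-fold (log2 fold change 1.42, SE 0.18, edgeR adjusted p = 0.00321). Fanca is on chromosome 8, and with that chromosome's median removed it was higher by 0.91 (edgeR adjusted p = 0.0149). Fanci, a target of the core complex, had 71.6 and 72.5 CPM in WT1 and WT2 and 119 and 99.4 CPM in KO1 and KO2, without overlap. Its log2 fold change of 0.60 missed the threshold (edgeR adjusted p = 0.0525) and passed it with chromosome medians removed (0.63, edgeR adjusted p = 0.0465), so this gene sits at the limit of the test. Its partner Fancd2 gave 0.28 and Fancc, of the core complex, 0.28. Fancg, also of the core complex, had the lowest value, 0.09, with 34.4 and 22.9 CPM in WT and 31.6 and 29.3 in KO, and Fancm, the helicase that anchors the complex, had 75.5 and 38.6 CPM in WT and 92.2 and 80.4 in KO. The log2 fold change of Fancm was 0.60, and was 1.13 and past both thresholds without WT1 and 0.19 without WT2. By edgeR 0 of the 6 fell, as by DESeq2 and at an unadjusted p under 0.05.

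In mismatch repair 2 of 4 members rose. Msh6, a subunit of the heterodimer that recognises base mismatches, had 482 and 423 CPM in WT and 841 and 720 CPM in KO. As FPKM the level was 110 and 96.5 in WT and 193 and 163 in KO, among the highest of all members. Msh6 rose with a log2 fold change of 0.79 (SE 0.19, edgeR adjusted p = 0.0265). Exo1, the exonuclease that removes the strand with the error and also resects breaks, had 63.8 and 47.0 CPM in WT1 and WT2 and 104 and 89.3 CPM in KO1 and KO2. The groups did not overlap, and Exo1 rose with a log2 fold change of 0.80 (SE 0.21, edgeR adjusted p = 0.0347). Msh3, the alternative partner in the dimer for longer loops, had 48.2 and 34.7 CPM in WT and 32.6 and 27.7 CPM in KO. The KO libraries were the lower ones here, in the opposite direction to Msh6, with a log2 fold change of -0.46 that did not pass (edgeR adjusted p = 0.192). Pms2, of the endonuclease that follows recognition, gave 0.27. By edgeR 0 of the 4 fell, as by DESeq2 and at an unadjusted p under 0.05.

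Base excision and single-strand break repair held 3 genes that rose. Lig3, the ligase that seals it, had 49.8 and 33.7 CPM in WT and 126 and 118 CPM in KO. It rose 2.91-fold (log2 fold change 1.54, SE 0.23, edgeR adjusted p = 0.00523). Lig3 lies on chromosome 11 at 82671934 to 82695100, just before Rad51d in the table's coordinates, and with the chromosome median removed it was higher by 1.05 (edgeR adjusted p = 0.0196). Xrcc1, the scaffold that holds LIG3 at the break, had 70.9 and 81.8 CPM in WT and 128 and 133 CPM in KO, and rose with a log2 fold change of 0.77 (SE 0.18, edgeR adjusted p = 0.0216). Parp1, which calls XRCC1 to the break, had 621 and 577 CPM in WT1 and WT2 and 1069 and 868 CPM in KO1 and KO2. It was the member with the most RNA, 117 and 108 FPKM in WT and 201 and 161 FPKM in KO. Parp1 rose with a log2 fold change of 0.69 (SE 0.20, edgeR adjusted p = 0.0426).

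The other 4 members of this group did not pass both thresholds. Ogg1, the glycosylase for oxidised guanine, had 29.6 and 38.5 CPM in WT and 21.9 and 20.9 CPM in KO, so both KO libraries were lower. Its log2 fold change was -0.67 (edgeR adjusted p = 0.0684), the lowest of the group and short of the threshold. Parp2, the close relative of Parp1, had 90.7 and 84.0 CPM in WT and 60.2 and 61.9 CPM in KO. Its log2 fold change of -0.52 (edgeR adjusted p = 0.071) was opposite in sign to that of Parp1, and its KO libraries were again the lower ones. The uracil glycosylase Ung gave 0.26, with KO values above every WT value, and the endonuclease Apex1 -0.24. By edgeR and by DESeq2 0 of these 7 members fell, and 1 did at an unadjusted p under 0.05, the median being 0.26.

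Of the 6 end-joining members 1 rose, a subunit of Ku. Xrcc6, which encodes Ku70, had 71.1 and 101 CPM in WT and 153 and 139 CPM in KO. The WT libraries differed from each other but both were below the KO libraries, and Xrcc6 rose with a log2 fold change of 0.76 (SE 0.22, edgeR adjusted p = 0.0433). Without WT1 the log2 fold change was 0.50, which no longer passed the fold threshold. Xrcc5, which encodes the Ku80 partner, was the group's most abundant member per length, with 49.8 and 43.6 FPKM in WT and 50.3 and 49.2 FPKM in KO. Its log2 fold change was 0.10, with a 95% interval from -0.31 to 0.50. Polq, the polymerase of microhomology-mediated joining, had 55.4 and 38.9 CPM in WT1 and WT2 and 22.9 and 34.3 CPM in KO1 and KO2, the lowest log2 fold change of the group at -0.72 (edgeR adjusted p = 0.0958). The ligase Lig4 gave 0.39, its partner Xrcc4 0.51 and the kinase Prkdc -0.16. Lig4 is on chromosome 8, and with that median removed its value was -0.12. By edgeR and by DESeq2 0 of the 6 fell, and 1 did at an unadjusted p under 0.05.

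Nucleotide excision repair had 0 of 4 members past both thresholds in either direction by edgeR, as by DESeq2 and at an unadjusted p under 0.05. The helicases of TFIIH, which unwind DNA around the lesion, had higher KO values. Ercc2 had 27.0 and 22.7 CPM in WT and 36.9 and 37.4 CPM in KO, a log2 fold change of 0.58 (edgeR adjusted p = 0.0819). Ercc3 had 52.0 and 51.1 CPM in WT and 71.9 and 71.3 CPM in KO, a log2 fold change of 0.47 (edgeR adjusted p = 0.0903). Xpa, the damage verifier, went the other way, with 9.10 and 7.78 CPM in WT and 6.05 and 4.22 CPM in KO and a log2 fold change of -0.72 (edgeR adjusted p = 0.186). All 3 had groups that did not overlap. Such separation was common among all genes tested, with KO the higher group for 33.2% and the lower for 32.5%. The nuclease subunit Ercc1 gave 0.11.

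**Figure D3:**
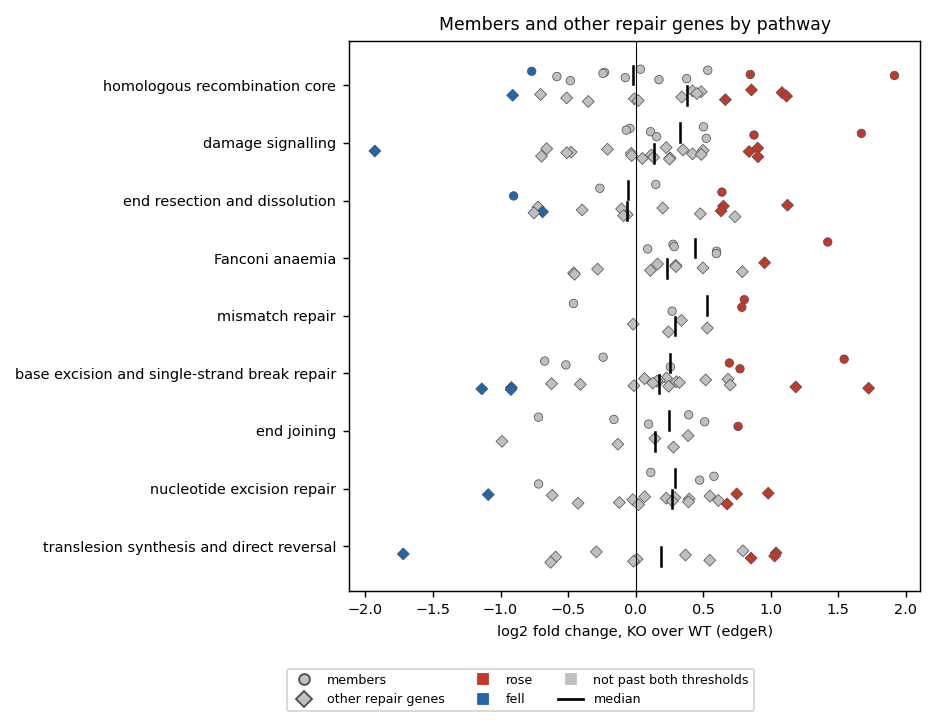
Log2 fold change of KO over WT for the 51 members (circles) and 115 other repair genes (diamonds, described further on) by pathway, with each median marked. The members' medians run from -0.06 for end resection to 0.53 for mismatch repair and within each pathway the members span more than that.

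Members were also compared by chromosome. On chromosomes 8 and 11 there were 7 members (Brca1, Rad51c, Rad51d, Rad50 and Lig3 on 11, Fanca and Lig4 on 8), and all 7 had KO values above every WT value. Among all genes tested 33.2% did, and the share for all genes of these chromosomes, which were higher in KO, was not counted. Of these 5 rose, where 26.5% of all genes tested on these chromosomes rose, and their median log2 fold change was 0.85 beside 0.50 for all genes there. On the other chromosomes 7 of 44 members rose (15.9%, against 8.61% of all genes) and 2 fell, with a median of 0.13 beside -0.07. With each chromosome's median removed in each KO library, 3 of the 7 still rose (Rad51d, Lig3 and Fanca), and the members in all came to 11 that rose and 2 that fell, with a median of 0.18. Without KO1 or without KO2, 3 of the 7 rose. Whether the copy number of these chromosomes differed in the KO lines was not tested.

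**Figure D4:**
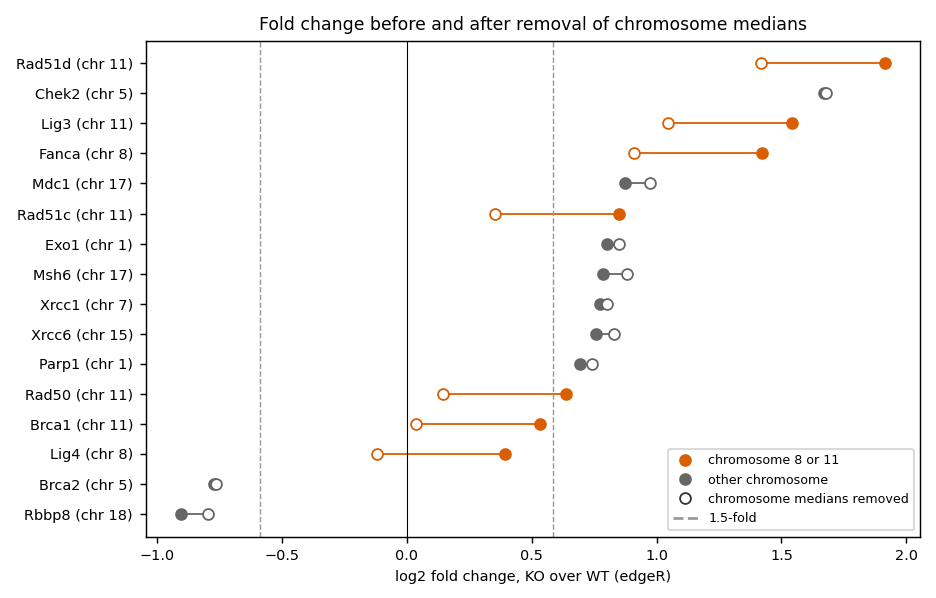
Log2 fold change of KO over WT (horizontal axis) for the 14 members past both thresholds with Brca1 and Lig4, as fitted (filled points) and with chromosome medians removed (open points). The 7 members on chromosomes 8 and 11 move to the left, Rad51d from 1.92 to 1.42, and the others stay in place or move slightly to the right; dashed lines mark 1.5-fold.

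The spread within a group differed among members. The WT libraries were more than 1.5-fold apart for 6 members, Atm, Atr, Prkdc, Fancd2, Fancg and Fancm, each higher in WT1, and the KO libraries for 0. Atm was the widest of these, 2.21-fold higher in WT1. The first 3 encode the related giant kinases of the damage response, and all 6 were among the members that did not pass. Over the 51 members the median difference on the log2 scale was 0.24 between WT1 and WT2 and 0.14 between KO1 and KO2. The difference of WT1 from WT2 had a Pearson r of 0.38 with log10 gene length over the 51 members and of 0.29 over the 11685 genes with a mean of at least 100 reads, and that of KO1 from KO2 of -0.29 and -0.06. RNA quality was not measured in these files, and its part in this was not tested.

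Overlapping genes limit some values, since the strand setting of the counting is not given in the sources used here. Of the 51 members, 24 overlap another gene that has at least 20 reads, among them 6 past the thresholds. Lig3 overlaps Rffl on the opposite strand, which had 570 and 597 reads in WT and 805 and 853 in KO, and Xrcc6 overlaps Desi1, with 726 and 1103 reads in WT and 789 and 1081 in KO. Fanca overlaps Zfp276, with 198 and 180 reads in WT and 248 and 276 in KO. Msh6 shares 34 bases with Fbxo11, Rbbp8 overlaps Gm50069, and Brca2 overlaps Gm42531 on its own strand, which had no more than 36 reads in any library. For the genes with a partner on the opposite strand, reads of the partner cannot be told apart from their own where the counting did not use strand. For Brca2, whose partner is on the same strand, a strand setting would not separate them either.

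Of 115 other repair genes, taken as the rest of the same pathways with translesion synthesis and direct reversal, 19 rose (16.5%) and 8 fell (6.96%), with a median log2 fold change of 0.23. Of all genes tested 11% rose and 10.7% fell. Off chromosomes 8 and 11, 9 of 96 other repair genes rose (9.38%, against 8.61% of all genes there) and 8 fell (8.33%). The lowest adjusted p-values in the downward direction belonged to Hmces (-1.72), which shields abasic sites, H2ax (-1.93), the histone that MDC1 reads, Tdp1 (-1.14) and Tdp2 (-0.92), which clear trapped topoisomerases, and Ddb2 (-1.09), a sensor of ultraviolet lesions. In the upward direction they belonged to Tdg (1.72), a thymine glycosylase, Dna2 (1.12), a resection nuclease, Polb (1.18), the polymerase of base excision repair, Hltf (1.04), a fork remodeller, and to Hrob (1.08), Psmc3ip (1.12) and Babam1 (0.90), which act in recombination or in the BRCA1-A complex. These last 3 lie on chromosomes 8 and 11 and did not pass with chromosome medians removed, at 0.59, 0.62 and 0.39. Polb lies on these chromosomes as well, where its 1.18, given without that removal, was the largest value of the other repair genes. Thus H2ax fell while its reader Mdc1 rose. On chromosomes 8 and 11 there were 19 of the other repair genes, and 10 rose (52.6%, against 26.5% of all genes tested there). With chromosome medians removed 1 of the 19 rose and 1 fell. Leaving out KO2 reduced the genes that rose to 1 and leaving out KO1 to 3.

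Lists of replication genes and of p53 targets were counted beside the members, since products of both act around DNA damage. Polk, Xpc and Ddb2 are in the p53 list and also among the other repair genes, so they are counted in both. Of 16 replication and proliferation genes 4 rose (Top2a 1.03, Rrm2 0.87, Cdc6 0.79 and Ccne1 0.67 on the log2 scale) and 0 fell by edgeR, as by DESeq2 and at an unadjusted p under 0.05, with a median of 0.39. The 4 were 25% of the list, where 11% of all genes tested rose, and the other 12 did not pass both thresholds. Top2a and Cdc6 lie on chromosome 11. With chromosome medians removed they gave 0.54 (edgeR adjusted p = 0.094) and 0.29 (edgeR adjusted p = 0.278). In that fit 2 of the 16 rose, where 1694 of the 18157 genes tested did. Of 20 p53 targets 7 rose (35%) and 1 fell (5%), with a median of 0.74, where 11% of all genes tested rose and 10.7% fell. DESeq2 gave 9 and 2, and an unadjusted p under 0.05 gave 11 and 2. The 1 that fell by edgeR was Ddb2 (-1.09). The other 12 targets did not pass, and with chromosome medians removed 7 again rose and 1 fell. Those with the lowest adjusted p were Ccng1 (1.82), Pmaip1 (1.67), Trp53inp1 (1.35) and Gtse1 (1.05), and the summed level of the list was 355 and 418 FPKM in WT1 and WT2 and 570 and 590 FPKM in KO1 and KO2. Ccng1 lies on chromosome 11, and with chromosome medians removed it gave 1.32 (edgeR adjusted p = 0.00978). The part of cycling or of p53 in the members' values was not tested.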

How the data were processed

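RNA from 2 WT and 2 Npac knockout samples of E14 mouse ESCs was sequenced as bulk libraries. The deposited table holds raw read counts per gene, and the authors deposited FPKM beside them. The submitters' processing notes name CASAVA, HISAT2 (version 2.0.5), featureCounts (version 1.5.0-p3) and the build mm10. Of the 51 members, all found in GENCODE M21 (GRCm38), 50 have the same span there but only 4 the same start and end, so the coordinates of the authors' table are of a build not given in the sources used here, and are printed as in that table. The promoter windows keep the coordinates of GRCm38.p6.

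Counts were tested with edgeR (4.0.16, in R 4.3.3) over all genes kept by filterByExpr, with TMM scaling and the quasi-likelihood test of KO against WT over all 4 libraries. Calls needed an adjusted p (Benjamini-Hochberg) below 0.05 together with a change of over 1.5-fold, the thresholds of the study's methods. SE is the absolute log2 fold change divided by the square root of F, and intervals are 95%. For the chromosome setting, the median difference of each chromosome (with at least 20 genes) in each KO library entered as an offset. Alternatives used DESeq2 (1.42.0) and limma (3.58.1) on FPKM. The procedure was tested on simulated data. Lists get counts and medians, with no test. Intervals cover 4 libraries only, and depth per library was as given above.

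The members and lists were chosen with earlier results of these data known. Values are given for members past both thresholds and, in each pathway, those with the largest and the smallest log2 fold change and the highest FPKM, with the log2 fold change alone for the rest. Of the other repair genes the 12 lowest adjusted p-values past both thresholds are named, and at most 4 of other lists. The overlap partners, the 7 members on chromosomes 8 and 11, the 6 with wide WT libraries, Chek1, Atm, Atr, Trp53bp1, Parp2 and Fancm were given values after these were seen.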

Additional observations from a re-analysis of the deposited data

How the results depend on the processing

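With 2 libraries a group the spread rests on few samples: 4 of the 14 calls (Rad51d, Chek2, Fanca and Lig3) held without each library in turn, and 10 were lost without KO1 or without KO2, where the lone KO library is assumed to vary like the others. Leaving out 1 library at a time gave 4 to 15 members that rose, 0 to 4 that fell, 3 to 5 that rose on chromosomes 8 and 11, and a member median of 0.0388 to 0.33. For other repair genes it gave 1 to 26 that rose and 2 to 18 that fell, and for all genes 642 to 3477 and 606 to 3311. Against 1999 all genes that rose and 1946 that fell, an unadjusted p under 0.05 gave 3074 and 3090, with 4 members and 17 other repair genes that fell. Above 2-fold, 4 members rose and 0 fell, 3 rose on chromosomes 8 and 11, and 7 other repair genes rose and 4 fell. limma on log2(FPKM + 1) and on log2(FPKM + 0.1) gave 1 and 1 members that fell. With chromosome medians removed 3 members rose on chromosomes 8 and 11. The direction of Atrip turned to 0.13 with chromosome medians removed (edgeR adjusted p = 0.679), and that of Fancg to -0.18 without WT2, over a range of -0.18 to 0.38 without each library. Over the 25 members named by rule 305 values kept their direction and side of the threshold, 30 lost and 13 gained a call, and 2 turned. Fanci gained its call in 6 settings. Of the other 26 members, with chromosome medians removed or without 1 library, 10 turned (Bard1, Xrcc2, Rad54b, Atr, Topbp1, Chek1, Blm, Lig4, Prkdc and Ercc1) and 4 gained a call (Xrcc3, Atm, Fancd2 and Fancm).

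Samples with the same replicate number had deviations from their group means that correlated at 0.332. There are only 2 pairs, no label ties a number to a batch, and whether such samples shared a batch was not tested. The fit with the replicate number as a block called 3128 genes that rose and 2994 that fell, with 4 members and 16 other repair genes that fell.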
